A study of Mus musculus with 3 samples.

Results

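The cells described here are lung gamma delta T cells that carry the V gamma 6 receptor genes and hold transcript of Il17a, the gene of the inflammatory cytokine interleukin 17A. They were chosen from 2 of the 3 libraries of the series. A member had at least 2 UMIs (unique transcript counts) of Trdc, the constant region of the delta chain, and at least 1 UMI of the CD3 genes Cd3e and Cd3d together. It also had at least 1 UMI over the gate genes Tcrg-V6, Cd163l1 and Trdv4, and at least 1 UMI of Il17a. Of 5164 barcodes kept from the whole series, 960 met the rule, among 1937 cells that passed the same gate when Il17a was ignored. The other 977 gate cells, with Il17a at 0, served as the comparison.

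The study profiled lung lymphocytes of GFI1B-GFP reporter mice, in which a green fluorescent protein reports on the gene of the transcriptional repressor GFI1B, by droplet single-cell RNA sequencing of transcript 3' ends. Every sort started from perfused lung and took live lymphocytes that were CD45+, lineage-negative, CD90.2+ and IL-7R+, a gate used for innate lymphoid cells. The first library, called the pool below, mixed IL-18R+CD103+GFP- cells with IL-18R+CD103-GFP+ cells, and which barcode came from which sort is not known here. The second was labelled IL-18R-CD103-GFP- and is called below the library labelled IL-18R-, and the third was IL-18R-ST2+. All animals carried the reporter, no treatment is named, and the sources used here do not give age, sex or the number of animals per library. Each group is 1 library, so no difference has a replicate check and no test was run. Every interval is a 95% limit for counting error only. The sources also do not list the lineage antibodies, and the cells described here are T cells that the gate retained.

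Gamma delta T cells read antigen through a receptor of gamma and delta chains. The V gamma 6 subset arises in the fetal thymus, is programmed there to make interleukin 17A, and settles in the lung and other barrier tissues. Its identity rests on transcription factors that include c-Maf (Maf), Sox13 and PLZF (Zbtb16), and it can be driven by interleukin 1 and interleukin 23 without a receptor signal. Interleukin 17A and its relative interleukin 17F make epithelium and stroma release factors that recruit neutrophils.

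The pool held 463 members, 27.9% of its 1659 kept cells, and the library labelled IL-18R- held 497, 26.4% of 1883. Members had a median of 4739 and 4569 UMIs per cell and summed to 2264380 and 2360740 UMIs. The Il17a-zero cells, 314 and 663, had a median of 4584 and 4418 UMIs. The ST2+ library held 5 gate cells and 2 with Il17a, and it is used only as a background. Levels below are UMIs summed over a class of cells per 1000000 UMIs of that class (UPM), so they are levels of a class and not of single cells. Transcript of Il18r1, the IL-18 receptor gene, did not separate the libraries as their labels do. Members stood at 787 UPM in the pool and 729 UPM in the library labelled IL-18R-, with a UMI in 95.0% and 94.0% of cells. The labels name a sort by protein and these values are RNA, so they do not show whether the label is wrong. Directions between these libraries are therefore directions between sorts as labelled. The libraries shared 1 barcode, a member.

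The gate genes, Trdc and Il17a were required by the rule, so their presence in members is a description. Values for members are given first for the pool and second for the library labelled IL-18R-. Trdv4 (the delta chain segment paired with V gamma 6) had a UMI in 96.3% and 96.2%, and Cd163l1, the scavenger receptor SCART1 of this subset, in 97.6% and 97.8%. Tcrg-V6 itself was found in 51.2% (46.5 to 55.8) and 52.9% (48.4 to 57.4). Blk, a Src-family kinase that the rule did not use and that type 17 gamma delta cells need, was found in 83.4% and 80.9% of members and in 77.4% and 67.1% of Il17a-zero cells. The subset's factor Maf, also outside the rule, was found in 95.5% and 94.4% of members and Sox13 in 45.1% and 46.9%. All 5 of Trdc, Tcrg-V6, Cd163l1, Il17a and Blk were present in 43.8% and 43.1% of members. Only 2.81% and 3.02% entered through Cd163l1 alone. Few members sat at the edge of the receptor steps, whereas many had the single Il17a UMI required (numbers below): 5 and 6 had exactly 2 Trdc UMIs against medians of 12 and 12, and 2 and 4 had exactly 1 gate gene UMI against medians of 13 and 11. Just outside, cells with 1 Trdc UMI that met every other step numbered 17 and 20, of which 10 and 3 held Il17a.

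Markers of other gamma delta subsets and other lineages ranged from absent to common. Tcrg-V4, the segment of the other interleukin 17 subset, had a UMI in 2.38% and 2.41% of members, and in 2 and 1 cells it came without Tcrg-V6 or Trdv4. The V gamma 4-associated gene 5830411N06Rik (SCART2) was in 2.59% and 1.61%. Tcrg-V1 had a UMI in 7.78% and 8.25% and Tcrg-V5 in 6.26% and 4.63%. Of the 6 NK and interferon gamma markers, Cxcr3 among them, 6.05% and 19.3% of members had 2 or more UMIs. The 4 B cell markers, among them Cd79a, Ms4a1 and Ebf1, summed to 0 and 4 UMIs. Of further B cell genes Igkc was in 1 member of each library, but Cd79b had a UMI in 16.9% and 12.5% and Ighm in 8.21% and 13.3% of members. The 6 stromal, endothelial and epithelial markers summed to 75 and 120 UMIs, with 2 or more in 2.81% and 3.42% of members. The 4 myeloid markers summed to 3 and 1 UMIs, and both mast cell markers were at 0. Of the ILC2 markers Il1rl1, Il5 and Il13 were at 0 in pool members and Il5 was at 0 in the other library. Cd4 was at 0, whereas Trac, the constant region of the alpha chain, had a UMI in 20.3% and 17.7% of members. The 6 alpha beta markers summed to 1415 and 1375 UPM in members and 1499 and 1496 UPM in Il17a-zero cells, most of it from the beta chain constant genes Trbc1 (567 and 543 UPM in members) and Trbc2 (787 and 764 UPM). Scrublet called 1 and 3 members doublets. Gate gene UMIs also occurred in cells without a Trdc or CD3 UMI, and their source was not tested. Of those with at least 2 UMIs of B cell, myeloid or stromal genes, 12.4% and 16.2% had a gate gene UMI, mostly Trdv4.

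Il17a was found in 59.6% (56.0 to 63.1) of gate cells of the pool and 42.8% (40.0 to 45.8) of those of the library labelled IL-18R-. With every cell thinned to 2500 UMIs, which left out 9 and 29 gate cells, the shares were 53.1% (49.5 to 56.7) and 36.1% (33.3 to 39.0). A background class had no Trdc or CD3 UMI and at least 2 UMIs of B cell, myeloid or stromal genes. Il17a was found there in 1.16% (3 of 258, median 5888 UMIs) and 1.25% (2 of 160, median 4806 UMIs). These genes do not fix a cell type, since Cd79b and Ighm among them also had UMIs in members. With Fcer1g and Itgam not counted the class held 217 and 81 cells. All cells without a Trdc or CD3 UMI numbered 395 and 211, and 2.28% and 3.79% of them had Il17a. In the ST2+ library 5 of 1622 kept cells had Il17a. Members made up 25.2% and 24.3% of each library's UMIs and held 86.1% of all Il17a UMIs in the pool, against 95.4% for the library labelled IL-18R-. Cells with Trdc and CD3 but no gate gene rarely held Il17a, in 7 of 87 (8.05%) and 5 of 304 (1.65%).

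**Figure D1:**
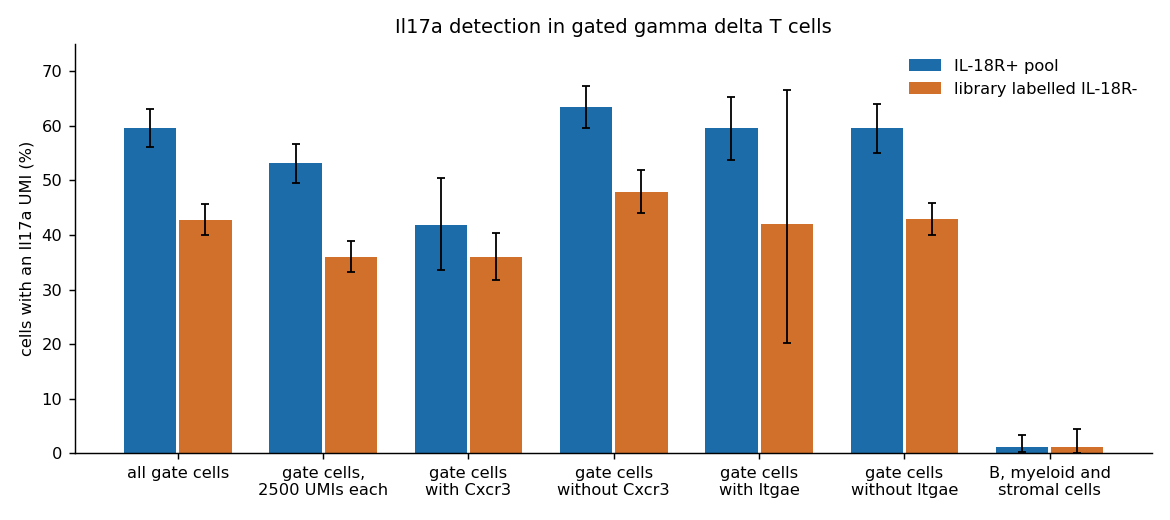
Percent of cells with at least 1 Il17a UMI in the gamma delta gate, in the gate thinned to 2500 UMIs per cell, in gate cells with or without a UMI of Cxcr3 or Itgae, and in cells with B cell, myeloid or stromal genes. Bars are 1 library each with 95% Clopper-Pearson limits. The pool bars stand above those of the library labelled IL-18R- in the whole gate (59.6% and 42.8%). The last bars, drawn as B, myeloid and stromal cells, are cells with such genes and no Trdc or CD3 UMI, at 1.16% and 1.25%.

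Members differed widely in how much Il17a they held. The median was 5 UMIs per member in the pool (quartiles 2 and 11, highest 55) and 4 in the library labelled IL-18R- (quartiles 2 and 9, highest 45). A single UMI was all that 76 pool members (16.4%) and 123 members of the other library (24.8%) had, whereas 133 (28.7%) and 117 (23.5%) had 10 or more. The tenth of members with most Il17a, 47 and 50 cells, held 35.1% of the 3862 and 39.2% of the 3360 Il17a UMIs of all members. These numbers belong to the rule and are given as a description.

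**Figure D2:**
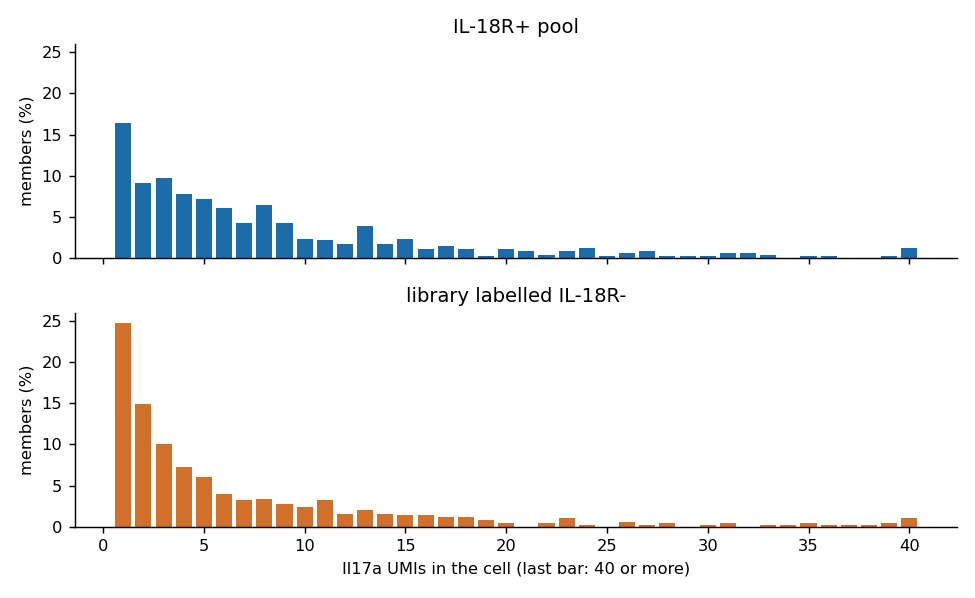
Share of members (percent) by the number of Il17a UMIs in the cell, for each library, with 40 or more UMIs in the last bar. The bar at 1 UMI is the tallest in both libraries, at 16.4% for the pool and 24.8% for the library labelled IL-18R-, and a long tail reaches past 10 UMIs.

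Compared with Il17a-zero cells of the same gate, members carried more of a few other cytokine transcripts and less of 13 genes, among them Klrk1, Ms4a6b and Ctsw, and most genes lay within 1.5-fold. A gene was counted when its ratio was at least 1.5 in the same direction in both libraries, with at least 20 UPM in the higher class of each. Of 5412 genes measured, 10 (0.185%) were higher in members and 13 (0.24%) lower, and the median log2 ratio over all of them was 0.00 for the pool and 0.03 for the library labelled IL-18R-. One of the 10 is Il17a itself, which the rule set. Because cells were split by a measured transcript, all values of this comparison are a description.

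Among 27 cytokine and growth factor genes listed beside Il17a, 13 were measured, 4 were higher in members (Il17f, Il22, Csf2 and Hbegf) and 0 lower, with median log2 ratios of 0.23 and 0.51. Il17f stood at 81.7 UPM in members against 17.3 in Il17a-zero cells of the pool. The corresponding values for the library labelled IL-18R- were 76.7 and 11.4 UPM. The ratios were 4.71 (3.09 to 7.47) and 6.72 (4.66 to 9.95). Il17f was nevertheless seen in a minority of members, 18.8% and 13.7%, against 4.78% and 3.62% of Il17a-zero cells. Members held 62.1% and 69.6% of each library's Il17f UMIs, and 3 members held 17.3% and 31.5% of the members' Il17f UMIs. Thinned to 2500 UMIs, the mean log2 ratio of Il17f over both libraries was 1.92, against 2.49 at full depth.

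Il17a and Il17f are neighbours on chromosome 1 in GRCm38, at 20730905 to 20734496 on the plus strand and 20777146 to 20790617 on the minus strand (GENCODE M21), with 42.6 kb between them. The 200 bases before the RefSeq start of each gene (GRCm38.p6) are shown because Il17a defines the members and its neighbour Il17f was among the 4 cytokine genes higher in them. Capitals mark 2 searched motifs, read on both strands: the Runx core ACCACA and the TATA box TATAAA.
Il17a promoter, chr1:20730705-20730904, plus strand: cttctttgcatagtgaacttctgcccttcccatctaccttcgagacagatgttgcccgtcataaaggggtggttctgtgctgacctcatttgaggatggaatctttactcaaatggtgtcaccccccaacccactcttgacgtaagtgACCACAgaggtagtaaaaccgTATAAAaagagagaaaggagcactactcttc
Il17f promoter, chr1:20784271-20784470, minus strand: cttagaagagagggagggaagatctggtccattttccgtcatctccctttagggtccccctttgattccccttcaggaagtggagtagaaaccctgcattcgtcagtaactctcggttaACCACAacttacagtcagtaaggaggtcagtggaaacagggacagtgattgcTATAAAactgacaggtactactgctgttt
Both windows hold each motif once. In Il17a the Runx core lies at 52 to 47 bases before the start and the TATA box at 31 to 26. In Il17f the Runx core lies at 81 to 76 and the TATA box at 29 to 24. The motifs do not overlap each other. Of 32851 RefSeq promoter windows of this length, 11.2% hold the Runx core and 9.96% the TATA box. The Il17a window lies outside annotated genes, and the Il17f window lies within an intron of a longer annotated Il17f transcript. A match is a description of letters and says nothing of binding in these cells.

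Il22, the cytokine that protects epithelium, was at 27.4 UPM in members against 5.55 in Il17a-zero cells of the pool and at 31.8 against 5.54 UPM in the library labelled IL-18R-. The ratios were 4.93 (2.36 to 11.9) and 5.73 (3.35 to 10.4). Few cells carried it: 2.81% and 3.02% of members had an Il22 UMI, and 3 cells held 59.7% and 58.7% of the members' Il22 UMIs. Members were a minor source of Il22 in these libraries, with 15.9% and 11.2% of its UMIs. Only 2 and 3 members had both Il17f and Il22.

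Csf2, which encodes the myeloid growth factor GM-CSF, stood at 22.5 against 12.5 UPM in the pool and 44.5 against 16.3 UPM in the library labelled IL-18R-, ratios of 1.80 (1.04 to 3.28) and 2.73 (1.93 to 3.90). In the latter, 3 members held 60.95% of the members' Csf2 UMIs, and the mean log2 ratio over both libraries, 1.15, was 0.49 without gate cells that had a Ccl5 or Cd27 UMI. Hbegf, an epidermal growth factor family ligand used in repair, stood at 88.8 against 56.9 UPM and at 76.2 against 49.9 UPM, ratios of 1.56 (1.201 to 2.04) and 1.53 (1.22 to 1.91). Members held 54.2% and 50.1% of each library's Hbegf UMIs. Without cells that had Trac or genes of other cell types, the mean log2 ratio of Hbegf was 0.41, against 0.63 with them, which is under 1.5-fold. Areg, another such ligand, had ratios of 1.38 and 1.76 and Tnfsf11 (RANKL) of 1.36 and 1.78, so neither reached 1.5 in both libraries. Tnf, at 125 against 112 UPM and 158 against 147 UPM, and Ltb, at 853 against 934 and 824 against 822, were close between the classes. None of Il17f, Il22, Areg, Tnf and Csf2 was detected in 42.5% and 37.4% of members.

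Outside the lists, the neutrophil chemokine gene Cxcl2 stood at 91.0 UPM in members against 42.3 in the pool and at 80.5 against 39.5 in the library labelled IL-18R-. Its excess came from few cells: 3 members held 49.0% and 49.0% of the members' Cxcl2 UMIs, and thinned to 2500 UMIs the mean log2 ratio went from 1.07 to -0.09. It did not rise with the amount of Il17a. Members with 1 Il17a UMI stood highest, at 148.5 and 153.8 UPM, and those with 10 or more at 35.06 and 59.7 UPM. The first of these last values is under that of Il17a-zero cells of the pool. Bambi, a decoy receptor of the TGF-beta family, stood at 70.2 against 40.2 UPM and 67.3 against 40.8 UPM, with 31.4% and 37.7% of the members' UMIs in 3 cells. Its mean log2 ratio was 0.49, against 0.76, without cells that had Trac or genes of other cell types.

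**Figure D3:**
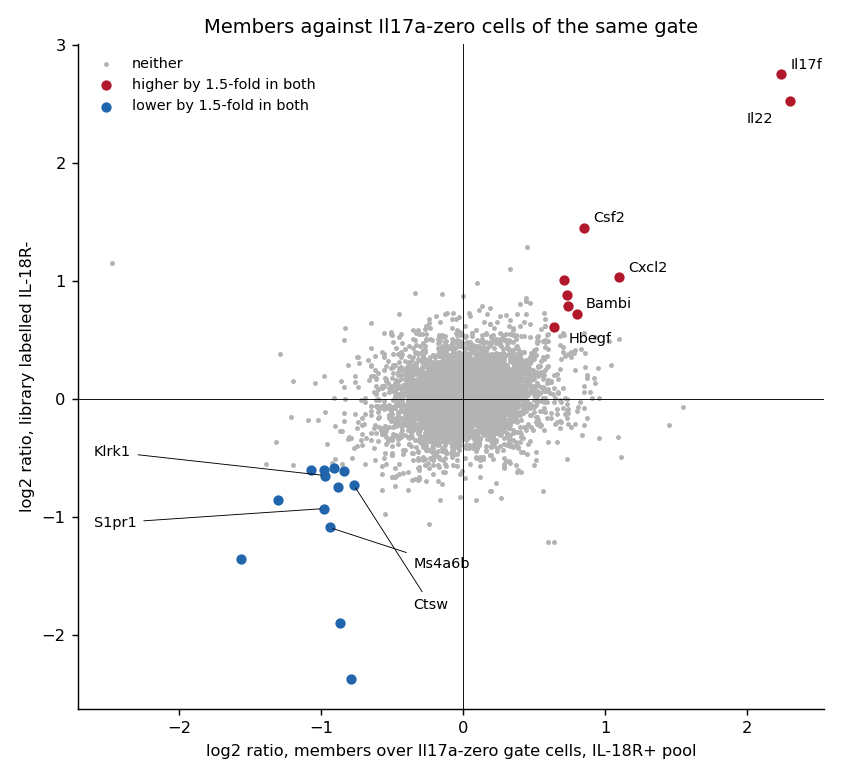
Log2 ratio of each gene in members over Il17a-zero cells of the same gate, in the pool (horizontal axis) and the library labelled IL-18R- (vertical axis), leaving out Il17a. Each point is 1 of the genes measured, and colour marks those past 1.5-fold in both libraries. Il17f and Il22 stand apart at the upper right, and most genes lie around 0 in both.

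The program that defines the subset differed little between members and Il17a-zero cells. Of 25 type 17 gamma delta genes 23 were measured and 0 were past 1.5-fold in either direction, with median log2 ratios of 0.09 and 0.16, and 17 lay above 0 in both libraries. Maf was at 863 against 827 UPM in the pool and 919 against 928 UPM in the library labelled IL-18R-, and Sox13 at 134 against 128 and 145 against 120 UPM. Cd163l1, a gate gene, was level between the classes, at 1249 against 1224 and 1084 against 1039 UPM. The receptor genes of the cytokines that drive these cells leaned toward members: Il1r1 was at 267 against 221 UPM and 233 against 164 UPM, ratios of 1.21 (1.05 to 1.39) and 1.42 (1.26 to 1.61), and Il23r at 170 against 148 and 148 against 137 UPM. None of 18 cytokine receptor genes and none of 30 transcription factor genes measured was past 1.5-fold. Ccr6, a chemokine receptor of type 17 cells, stood at 62.3 against 41.6 UPM in the pool and at 14.4 against 4.56 UPM in the library labelled IL-18R-, where it was under the level required.

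Genes that follow receptor or cytokine signalling were shifted by small amounts. All 15 measured genes of NF-kB feedback lay above 0 in both libraries, with median log2 ratios of 0.25 and 0.25, and 0 of 15 were past 1.5-fold. Over all genes measured, 1755 of 5412 lay above 0 in both libraries. Nfkbia, the inhibitor that NF-kB itself induces, was at 1658 against 1362 UPM and 1633 against 1292 UPM, ratios of 1.22 (1.15 to 1.29) and 1.26 (1.21 to 1.32). Gadd45b, a stress gene of the same pathway, was nearest to the threshold with ratios of 1.5 and 1.45. Of 20 AP-1 and immediate early genes 0 were past 1.5-fold and 13 lay above 0 in both libraries, with medians of 0.16 and 0.23. Junb, an AP-1 subunit, was at 6686 against 5383 UPM and 5815 against 4769 UPM. Egr1 went opposite ways, at 232 against 284 UPM in the pool and 308 against 211 UPM in the library labelled IL-18R-. The 11 heat shock genes, induced when tissue is dissociated, had medians of -0.05 and 0.07 and 0 past 1.5-fold.

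Of 23 genes listed for interferon gamma-type gamma delta and NK cells 4 reached the level required, and 2 of these, Klrk1 and S1pr1, were lower in members. Klrk1, the activating receptor NKG2D, stood at 70.7 against 138 UPM in the pool and 133 against 209 UPM in the library labelled IL-18R-, ratios of 0.512 (0.413 to 0.633) and 0.637 (0.554 to 0.730). Cxcr3, the chemokine receptor of interferon gamma-type cells, stood at 37.1 against 97.1 UPM, a ratio of 0.382 (0.288 to 0.504), and 117 against 172 UPM, a ratio of 0.682 (0.587 to 0.790), just short of the threshold in the second library. S1pr1, the receptor that lets lymphocytes leave tissue, stood at 13.7 against 27.1 and 25.4 against 48.6 UPM. It had a UMI in only 2.38% and 5.23% of members, and when the gate used the receptor genes alone its mean log2 ratio turned from -0.96 to 0.56. Tnfrsf18 (GITR) stood at 18.6 against 33.3 and 24.99 against 38.1 UPM. Tcf7, a factor of unspecialised T cells, had ratios of 0.748 and 0.725 and was not past the threshold.

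Outside the lists, Ms4a6b, a membrane protein gene of T cells, stood at 34.0 against 65.2 UPM in the pool and 69.1 against 147 UPM in the library labelled IL-18R-. Ctsw, a protease of cytotoxic lymphocytes, stood at 86.1 against 147 UPM and 111 against 183 UPM. Ier5l stood at 43.3 against 79.8 and 41.1 against 69.1 UPM. For Ms4a6b, Ctsw and Ier5l the intervals of the ratio stayed below 1 in both libraries. Upper bounds were 0.7125 and 0.5642 for Ms4a6b, 0.715 and 0.7001 for Ctsw, and 0.717 and 0.759 for Ier5l. Thinned to 2500 UMIs, the mean log2 ratio of Ctsw went from -0.75 to -0.44 and that of Tnfrsf18 from -0.73 to -0.39, both under 1.5-fold.

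Some markers of another T cell type moved with these genes, Ccl5 only in the library labelled IL-18R-. In the pool Ccl5 had a UMI in 0.637% of Il17a-zero cells and 0.648% of members. Cd27 leaned the other way in the pool, at 0.955% of Il17a-zero cells and 2.38% of members. In the library labelled IL-18R-, 54 Il17a-zero cells (8.14%) but 12 members (2.41%) had a UMI of Ccl5, a chemokine gene of memory and cytotoxic T cells, and S1pr1 was found in 63.0% of those 54 cells. Of these 54, 27.8% entered the gate through Cd163l1 alone. Gamma delta cells without a gate gene had Ccl5 in 84.2% in that library and 12.6% in the pool. The summed level of the NK and interferon gamma markers was 60.5 UPM in members and 135 UPM in Il17a-zero cells of the pool, and 161 against 282 UPM in the library labelled IL-18R-. Cxcr3 is 1 of these markers and made up most of each sum, so the sums in large part restate its difference given above. Ncr1 was at 0 in members of the library labelled IL-18R- and Eomes in members of the pool. Both were also at 0 in Il17a-zero cells of the pool. Ncr1 had a UMI in 1 pool member and in 1 of 663 Il17a-zero cells of the other library. These zeros therefore do not set members apart from Il17a-zero cells. Without gate cells that had a Ccl5 or Cd27 UMI, the mean log2 ratio over both libraries went from -0.81 to -0.84 for Klrk1, from -0.75 to -0.78 for Ctsw, from -1.01 to -0.91 for Ms4a6b and from -0.96 to -0.40 for S1pr1.

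The same cells can be read by Cxcr3 in place of Il17a, which restates the Cxcr3 difference above as shares and adds no support to it. Il17a was found in 41.8% (33.6 to 50.4) of pool gate cells with a Cxcr3 UMI and 63.5% (59.7 to 67.3) of those without, and for the library labelled IL-18R- the shares were 35.96% (31.7 to 40.4) and 47.97% (44.1 to 51.8). Thinned to 2500 UMIs the shares were 31.6% and 56.2%, and 26.1% and 39.9%. Itgae, the CD103 gene, made no such division: Il17a was found in 59.7% (53.8 to 65.3) of pool gate cells with it and 59.5% (55.0 to 63.9) without. Among cells without Ccl5, Il17a was found in 59.6% of the pool gate and 44.3% (41.4 to 47.3) of the other.

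Some genes also differed with the amount of Il17a in the cell. Cells were binned at 0, 1, 2 to 4, 5 to 9 and 10 or more Il17a UMIs, with 314, 76, 123, 131 and 133 cells in the pool and 663, 123, 160, 97 and 117 in the library labelled IL-18R-. Il17f in the latter was higher in each bin than in the one before, from 11.4 through 19.4, 49.3 and 56.9 to 186 UPM. In the pool it went from 17.3 through 63.6, 98.7 and 54.6 to 102 UPM, which is not a steady order. Nfkbia had such an order in both libraries, from 1362 UPM at 0 through 1435 at 1 UMI to 1742 UPM in the pool, and from 1292 through 1409 to 1758 UPM in the library labelled IL-18R-. Junb was higher in the upper bins without a steady order, at 5383, 5229, 6044, 7131 and 7697 UPM in the pool and 4769, 5192, 5403, 6537 and 6376 UPM in the other library.

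Other genes were highest in cells without Il17a. Ms4a6b stood at 65.2, 50.4, 44.4, 36.9 and 12.2 UPM over the bins of the pool, and at 147, 67.2, 95.9, 54.8 and 47.4 UPM in the library labelled IL-18R-. Cxcr3 stood at 97.1, 42.4, 28.0, 53.0 and 27.4 UPM in the pool, with no order among members, and at 172, 131, 152, 101 and 70.2 UPM in the other library. Ccl5, in the library labelled IL-18R-, went from 567 through 330, 164 and 10.5 to 5.27 UPM. Few cells carried it: 8.1% at 0, then 4.1%, 1.9%, 1.0% and 2.6%, which is no steady order among members. Cd163l1 stayed between 996 and 1303 UPM over all bins of both libraries.

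**Figure D4:**
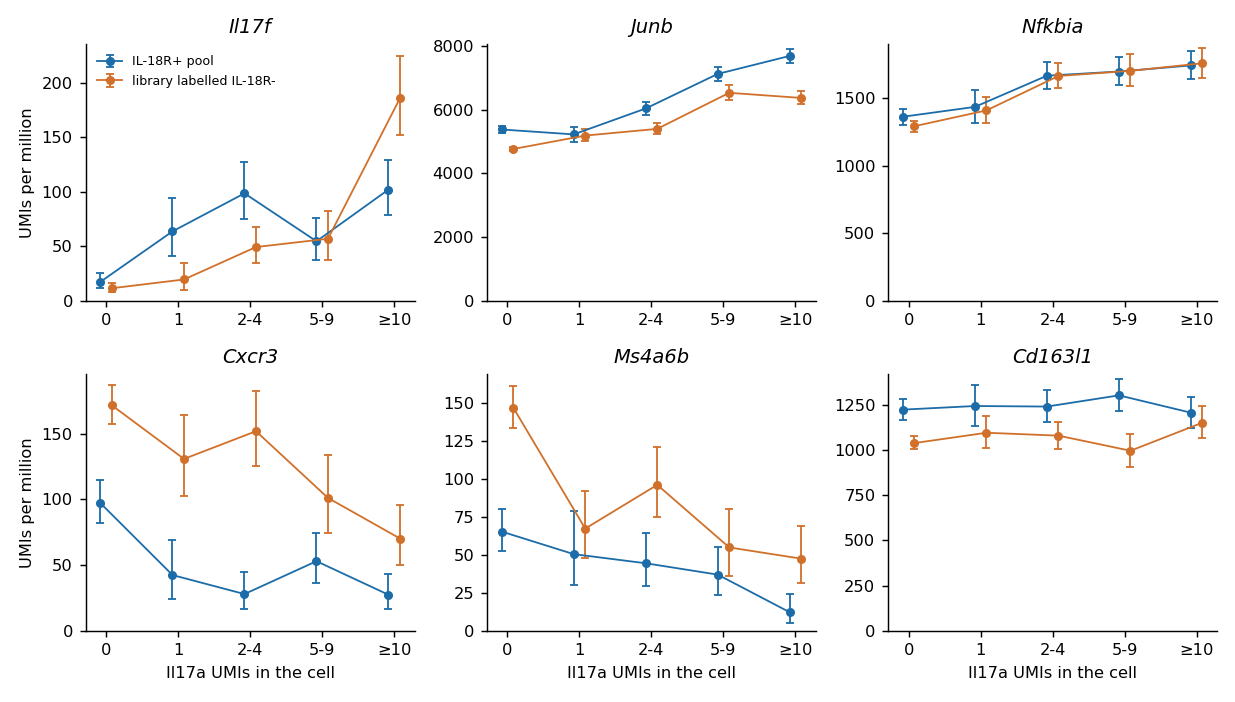
Level of 6 genes (UPM) by the number of Il17a UMIs in the cell, for gate cells of each library, with 95% Poisson limits. The gene Nfkbia climbs with Il17a in both libraries, Ms4a6b and Cxcr3 are highest at 0, and Cd163l1 stays level.

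Between the libraries, members had close levels of Il17f and Il22 and of most genes of their identity. They differed in some homing and interferon gamma-type genes. Differences in 2 other cytokine genes, Csf2 and Cd40lg, did not hold under all alternatives (below). Of 5674 genes measured, 139 (2.45%) were higher in the pool and 168 (2.96%) lower by 1.5-fold, with 1 library on each side. Il17a stood at 1706 UPM in pool members and 1423 in those of the library labelled IL-18R-, a ratio of 1.198 (1.14 to 1.26). Il17f stood at 81.7 and 76.7 UPM, a ratio of 1.07 (0.863 to 1.32), and Il22 at 27.4 and 31.8 UPM, a ratio of 0.862 (0.606 to 1.22). Of 24 measured type 17 genes 1, Ccr6, was higher in the pool and 0 lower. All 11 gamma delta receptor and CD3 genes measured lay within 1.5-fold, Trdc at 2728 and 2829 UPM among them.

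Homing genes differed in both directions. Itgae, which the CD103 gate selects, was at 112 UPM in pool members and 4.66 in those of the library labelled IL-18R-, a ratio of 24.1 (13.2 to 48.8). Ccr6, which guides type 17 cells to epithelial CCL20, stood at 62.3 and 14.4 UPM, a ratio of 4.32 (2.96 to 6.49), and was found in 21.8% and 5.84% of members. Of 21 homing and residency genes 2 were higher in the pool (Ccr6 and Itgae) and 3 lower, among them Cxcr3 and S1pr1. Cxcr3 stood at 37.1 against 117 UPM, a ratio of 0.317 (0.246 to 0.406), and in 12.7% against 35.8% of members. S1pr1 stood at 13.7 against 25.4 UPM, and thinned to 2500 UMIs its log2 ratio was 0.00. Cxcr6, a receptor of lung-resident lymphocytes, stood at 1073 and 1075 UPM.

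Of 6 measured genes of the interferon gamma and NK list 5 were lower in the pool, with a median log2 ratio of -1.09. Klrk1 stood at 70.7 against 133 UPM, a ratio of 0.531 (0.436 to 0.645). Nkg7, a cytotoxic granule gene, stood at 11.9 against 28.8 UPM, and its log2 ratio was -0.19 without cells that had a Ccl5 or Cd27 UMI. Ccl5 stood at 1.77 against 135 UPM, with 74.5% of the latter in 3 cells. Ifng was found in 1.51% and 3.62% of members.

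Of 13 measured cytokine genes beside Il17a 2 were lower in the pool and 0 higher. These were Csf2 (22.5 against 44.5 UPM) and Cd40lg (25.6 against 39.0 UPM), the CD40 ligand of helper T cells. Without cells that had Trac or genes of other cell types, the log2 ratio of Cd40lg was -0.40, against -0.61 with them. The direction of Csf2 rested on few cells: its log2 ratio was 0.11 without Scrublet calls and 0.20 without cells that had a Ccl5 or Cd27 UMI. The glucose transporter genes went opposite ways, Slc2a1 at 23.0 against 13.6 UPM and Slc2a3 at 26.1 against 44.5 UPM.

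Outside the lists the largest ratios on the pool side included Cdk11b, a cyclin-dependent kinase gene of splicing control, at 581 against 294 UPM (1.98, 1.80 to 2.17). The tumour suppressor gene Rassf1 stood at 188 against 114 UPM and the noncoding RNA Snhg15 at 170.0 against 95.3 UPM. On the other side stood Gem, a small GTP-binding protein gene, at 78.6 against 213 UPM (0.368, 0.309 to 0.438), the GTPase Gimap4 of lymphocyte survival at 64.0 against 142 UPM, the adhesion receptor Adgre5 (CD97) at 79.5 against 169 UPM and the lamin gene Lmna at 197 against 380 UPM. Il17a-zero cells had the same order for each of these 7 genes. Their levels in the pool and the other library were 339 and 224 UPM for Cdk11b, 167 and 112 for Rassf1, 119 and 90.6 for Snhg15, 94.3 and 151 for Gem, 90.9 and 199 for Gimap4, 117 and 180 for Adgre5, and 209 and 282 UPM for Lmna.

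**Figure D5:**
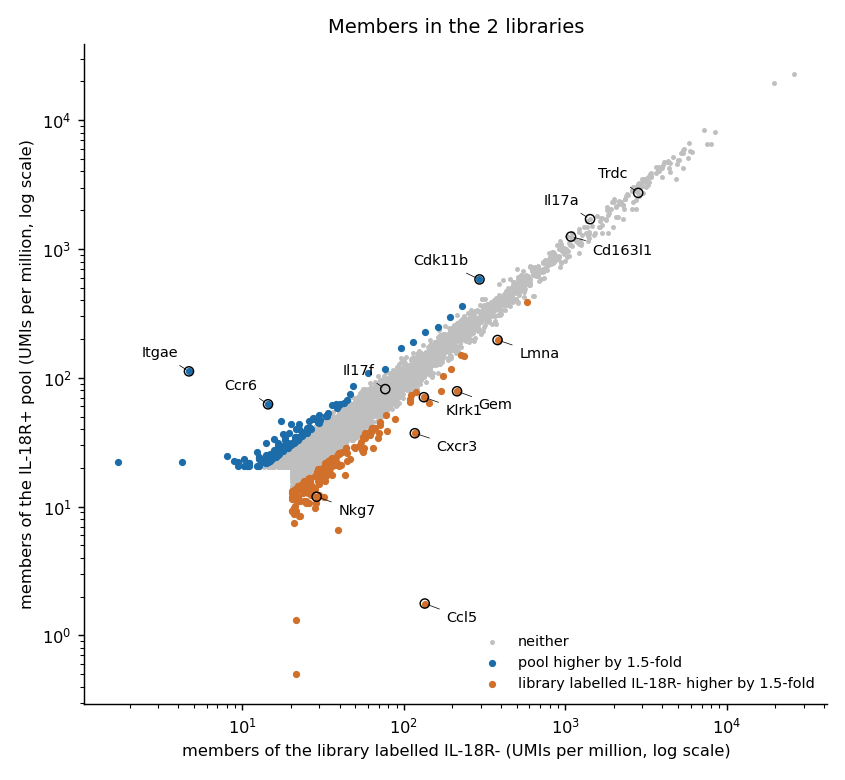
Level of each measured gene in members of the library labelled IL-18R- (horizontal axis) and of the pool (vertical axis), both in UPM on log scales, with values under 0.5 UPM drawn at 0.5. Rings mark named genes. The genes Trdc, Il17a and Cd163l1 lie near the diagonal, Itgae and Ccr6 on the pool side, and Cxcr3 and Ccl5 on the other side.

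Within the pool, 173 members had an Itgae UMI and 290 had none. Both kinds held the same Il17a level, 1708 and 1704 UPM, a ratio of 1.00 (0.939 to 1.07), and close levels of Cd163l1 (1217 and 1269) and Ccr6 (58.9 and 64.4 UPM). The highest ratios with Itgae over without were those of low genes: Ifng stood at 26.03 against 2.17 UPM (11.98, 3.62 to 62.3, from 23 and 3 UMIs), Calcrl at 26.03 against 6.52 UPM (3.99, 1.78 to 9.81), S1pr1 at 24.9 against 6.52 UPM (3.82, 1.69 to 9.43) and Cd7 at 50.9 against 15.9 UPM (3.197, 1.88 to 5.59). The Ifng ratio rests on few cells: 7 pool members had an Ifng UMI, and 3 of them held 76.9% of the 26 UMIs. Klf2, a factor of circulating lymphocytes, stood at 123 against 62.3 UPM (1.98, 1.48 to 2.66). Tnf stood at 155 UPM with Itgae and 106 without, a ratio of 1.46 (1.15 to 1.85), and Il17f at 98.5 and 71.0 UPM, a ratio of 1.39 (1.03 to 1.87). Il22 stood at 12.4 and 36.9 UPM, a ratio of 0.337 (0.158 to 0.655) that rests on 11 and 51 UMIs. Absence of an Itgae UMI in a cell does not show absence of CD103, and the split does not recover the 2 sorts.

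Compared with Il17a-positive alpha beta T cells of the pool, members had more of some type 17 gamma delta genes, among them Sox13, Il1r1 and Blk, and less Cd40lg, Lck and Cd2. The comparison cells were 60 cells with Il17a, Trac and CD3 and no Trdc UMI, with a median of 5635 UMIs. The library labelled IL-18R- had 4 such cells and was not compared. Of 5917 genes measured, 960 (16.2%) were higher in members and 737 (12.5%) lower by 1.5-fold, with 1 library behind all values, and the gate genes and Trac were set by the rule. Of 25 type 17 genes 10 were higher, the gate gene Cd163l1 among them, 2 lower and 13 neither, with a median log2 ratio of 0.24. Sox13 stood at 134 against 20.9 UPM (6.41, 3.07 to 16.1), Il1r1 at 267 against 143 (1.86, 1.39 to 2.56) and Blk at 432 against 224 UPM (1.93, 1.52 to 2.47). Ccr6, at 62.3 against 116 UPM, and 5830411N06Rik, at 11.5 against 179 UPM, were lower. Of 11 measured gamma delta receptor and CD3 genes 7 were higher in members and 1, Tcrg-V4, was lower. Tcrg-V4 and 5830411N06Rik are both genes of V gamma 4 cells. Whether the 60 comparison cells include gamma delta cells without a Trdc UMI was not tested.

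Single genes of receptor signalling stood on both sides. Cd247, the zeta chain, stood at 323 UPM in members against 47.8 in alpha beta cells (6.76, 4.13 to 11.9). Lck, the Src-family kinase of the CD4 and CD8 coreceptors, stood at 5.74 against 107 UPM (0.0534, 0.0260 to 0.103), the opposite of Blk. Clnk, an adaptor of immune receptor signalling, stood at 121 against 8.95 UPM (interval of the ratio 4.59 to 66.2). Pik3ap1, an adaptor that links receptors to PI3 kinase, stood at 94.5 against 5.97 UPM (4.33 to 131.6). Ptgs2, the prostaglandin-making enzyme COX-2, stood at 205 against 5.97 UPM (34.2, 9.43 to 284). The alpha beta levels of Clnk, Pik3ap1 and Ptgs2 rest on 3, 2 and 2 UMIs. In Il17a-zero cells of the pool Ptgs2 stood at 137, Clnk at 103 and Pik3ap1 at 93.6 UPM, so these levels are not particular to members. Of 20 AP-1 and immediate early genes 4 were higher (Jun, Junb, Egr1 and Dusp2) and 4 lower (Fosb, Atf3, Nr4a3 and Klf4), with Jun at 1156 against 281 UPM. Of 18 costimulation and checkpoint genes 3 were higher (Ctla4, Pdcd1 and Cd96) and 10 lower, with the checkpoint receptor gene Pdcd1 at 256 against 53.7 UPM.

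Of 13 measured cytokine genes beside Il17a 5 were higher in members (Tnf, Areg, Hbegf, Lta and Tnfsf14) and 3 lower (Il22, Cd40lg and Furin). Il17a stood at 1706 UPM in members against 830 UPM in alpha beta cells (2.06, 1.82 to 2.33), both chosen for holding it, and thinned to 2500 UMIs its log2 ratio went from 1.04 to 0.53, under 1.5-fold. Il17f stood at 81.7 against 95.5 UPM (0.855, 0.585 to 1.29). Hbegf stood at 88.8 against 32.8 UPM and Areg at 129 against 83.6 UPM, with a log2 ratio of 0.33 in place of 0.63 once members with Trac, and cells of either kind with 2 or more UMIs from genes of other cell types, were left out. Cd40lg stood at 25.6 against 731 UPM (0.0350, 0.0258 to 0.0468), the costimulatory receptor gene Icos at 875 against 1707 UPM, and the adhesion gene Cd2 at 28.7 against 155 UPM. S1pr1 stood at 13.7 against 137 UPM and Ramp3, a subunit of neuropeptide receptors, at 412 against 1039 UPM. Cxcr3 stood at 37.1 against 5.97 UPM, and thinned to 2500 UMIs its log2 ratio was 0.31.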

How the data were processed

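Each deposited matrix holds whole UMI counts per gene and barcode without normalisation, per the file headers, for 32285 features, and the authors made it with Cell Ranger 6.0.1 on mm10, per the submitters' processing notes. The annotation and cell calling settings: not given in the sources used here. Of 5351 barcodes, 5164 had 500 or more genes and no more than 10% mitochondrial UMIs and were kept. Doublets were not removed. Scrublet (scanpy 1.11.5, expected rate 0.8% per 1000 cells) called 4, 11 and 11 cells, likely too few, and leaving them out was an alternative. Ambient RNA was not removed.

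Counts were summed per library and class and scaled to 1000000 UMIs of the class (UPM). A gene was counted at a ratio of at least 1.5 and 20 UPM in the higher class, with sums raised to a floor of 3 UMIs. Limits are exact 95% Poisson-based limits for levels and ratios and Clopper-Pearson limits for shares. The rule was checked on simulated Poisson sums for members against Il17a-zero cells only. The comparison between libraries, that with alpha beta cells, and UMIs concentrated in few cells were not simulated. Summed depth was 2264380 and 2360740 UMIs for members. The alpha beta comparison was planned for both libraries but used the pool alone, since the other held 4 such cells. Alternatives changed the gate minima, cell filters, thinning, scaling (TMM in edgeR 4.0.16, median of ratios in DESeq2 1.42.0), level and fold. Groups came from the sample labels.

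The members and the 22 gene lists were chosen with earlier results of these data known, so counts of list genes are no independent support. Named genes are the markers, list genes in a described role, and outside the lists the 10 largest ratios per direction at 50 UPM or more, leaving out predicted, mitochondrial and ribosomal protein genes. Promoters come from RefSeq and gene positions from GENCODE M21. Some genes of the lists are counted but not reported here.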

Additional observations from a re-analysis of the deposited data

How the results depend on the processing

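Of 146 recomputed counts, shares and cell numbers, 112 stayed within 1.5 times or within their limits and 34 moved. Of 1818 recomputed gene ratios, 1761 stayed, 53 moved and 4 of genes past 1.5-fold changed direction. With at least 2 Il17a UMIs required, the share of gate cells with Il17a was 49.81% for the pool and 32.24% for the library labelled IL-18R-, and 21 genes were higher and 24 lower in members than in Il17a-zero cells (10 and 13 in the report). Thinned to 2500 UMIs the shares were 53.12% and 36.07%, the members against Il17a-zero counts 28 and 31, the pool against the other library 358 and 372 (139 and 168 in the report), and 1826 genes were lower than in alpha beta cells (737 in the report). Without cells that had Trac or genes of other types the counts were 22 and 27, with 263 lower in the pool, and with Fcer1g and Itgam not counted, an alternative chosen after seeing the data, 18 and 27, with 262 lower. A minimum of 50 UPM gave 5 and 5, 25 and 39, and against alpha beta cells 344 and 299. No minimum gave 128 and 375, 951 and 1195, and 5980 lower than in alpha beta cells. A 2-fold rule gave 4 and 1, 16 and 41, and 423 and 294. The changes of direction were S1pr1 against Il17a-zero cells (0.56 with receptor genes only in the gate), Cxcl2 (-0.09 thinned) and Csf2 between libraries (0.11 without Scrublet calls and 0.20 without cells with a Ccl5 or Cd27 UMI, chosen after seeing the data). Fewer genes reach a higher level or fold by construction, and fewer UMIs per sum widen ratios; for the other settings the cause was not tested.

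TMM and median-of-ratios scaling moved no count past 1.5 times. No paired analysis was possible because each group is 1 library without a replicate number, so none could be left out either. Genes under 20 UPM in both classes of a library, among them 14 of the 28 listed cytokine genes for members against Il17a-zero cells, could not be compared at this depth.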

Other observations

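Members also carried genes through which a neuropeptide and lipid mediators can act on lymphocytes, at levels close to those of Il17a-zero cells. Ramp1, a subunit of the receptor for the neuropeptide CGRP, stood at 930 against 873 UPM in the pool and 838 against 720 UPM in the library labelled IL-18R-, and was found in 98.1% and 95.0% of members. Calcrl, the partner that this receptor needs, was found in only 3.02% and 3.02% of members. The leukotriene B4 receptor gene Ltb4r1 stood at 258 against 233 and 286 against 239 UPM.

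The checkpoint receptor gene Pdcd1 was found in 54.0% and 62.4% of members and stood at 256 against 206 UPM in the pool and 320 against 235 UPM in the library labelled IL-18R-. Icos, a costimulatory receptor gene, stood at 875 against 751 and 919 against 778 UPM. None of these genes was past 1.5-fold. Members were seldom in cycle by this measure: Mki67, a proliferation marker, had a UMI in 0.648% (0.134 to 1.88) and 1.61% (0.697 to 3.15). The 18 glycolysis and hypoxia genes measured had 0 past 1.5-fold between members and Il17a-zero cells, with median log2 ratios of 0.09 and 0.16.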
